A study of Mus musculus with 7 samples.

Results

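Serine synthesis and amino acid response genes were followed across fibroblasts, induced pluripotent stem (iPS) cells and embryonic stem (ES) cells of the mouse. The list held 35 genes of 4 roles, chosen by name: enzymes of serine, asparagine and folate metabolism (10), amino acid transporters (8), tRNA synthetases (9) and stress genes linked to the transcription factor ATF4 (8). The genes were chosen with earlier results of these data known, so the comparisons with all genes below are descriptions and no independent check. Of the 35 genes 34 were measured, out of 19938 genes with a probe set of 1 gene symbol. Each of the 34 had 1 such probe set. Aars, the alanyl-tRNA synthetase gene, had only a probe set shared with another gene and is not reported. Messenger RNA levels came from 7 Affymetrix arrays in 5 groups. The labels do not say that the samples came from separate cultures, so p-values measure only the spread between these samples, and the number of arrays limits the precision. ES cells of the OG2 background, grown in N2B27(2i), gave 1 array; the inhibitors called 2i block the kinases MEK and GSK3. Line O4-1 of iPS cells gave 1 array in the same 2i medium. In KSR medium 3 iPS lines gave an array each, O4-1, O4-2 and O4-4. These lines were made from fibroblasts infected with Oct4, and each is 1 line. The only genetic backgrounds that the labels name are 129/OG2 and OG2. Mouse embryonic fibroblasts (MEFs), isolated from 129/OG2 embryos at 13.5 days post coitum, gave 1 array in the medium called iCD1 and 1 array in FBS medium. All values are log2 expression, so that a difference of 1 is a 2-fold change. Levels are compared within a gene and not between genes, since probe sets differ in brightness.

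Cells make serine from a glycolytic intermediate through PHGDH, PSAT1 and PSPH. Serine then gives up a carbon to folate through the SHMT enzymes, and the MTHFD enzymes carry that carbon towards formate, purines and thymidylate. When amino acids run short, uncharged tRNA activates the kinase GCN2, translation of most messages falls, and that of ATF4 rises. ATF4 then raises the transcription of amino acid transporters, asparagine synthetase, serine pathway enzymes, many cytosolic tRNA synthetases and stress factors such as CHOP (Ddit3) and TRIB3. Mouse pluripotent cells are known for their heavy use of folate-borne carbon, with threonine and glycine as sources.

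ATF4 and its partners of the C/EBP family bind a composite element known as the amino acid response element, and the promoters that hold its letters are shown because the results below concern known targets of ATF4. The RefSeq promoter windows of build GRCm38.p6, from 250 bases before to 50 bases after an annotated start, covered 27 of the 34 measured genes. Aldh1l2, Slc7a3, Slc7a5, Slc1a5, Wars, Nars and Cars had no entry. The motif TGATGNAA, searched on both strands, was found in 8 of the 27 genes (29.6%), against 4.51% of the 27025 genes with a window and 3.97% of all 32851 windows. In the stretches below the motif stands in capitals, read 5′ to 3′ on the strand of the gene, so that a match on the opposite strand appears as its reverse complement.
Asns: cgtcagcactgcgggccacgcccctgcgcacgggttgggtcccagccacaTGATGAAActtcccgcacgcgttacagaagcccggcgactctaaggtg
Slc7a11: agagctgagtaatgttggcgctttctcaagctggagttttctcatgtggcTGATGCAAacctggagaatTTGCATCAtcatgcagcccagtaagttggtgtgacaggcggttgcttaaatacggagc
Slc1a4: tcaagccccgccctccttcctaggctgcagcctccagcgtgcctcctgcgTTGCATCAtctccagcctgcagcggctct
Gars: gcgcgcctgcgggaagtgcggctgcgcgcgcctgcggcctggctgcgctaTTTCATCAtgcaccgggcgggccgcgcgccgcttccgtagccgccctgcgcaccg
Tars: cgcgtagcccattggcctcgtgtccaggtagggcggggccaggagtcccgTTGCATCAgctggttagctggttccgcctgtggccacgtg
Atf3: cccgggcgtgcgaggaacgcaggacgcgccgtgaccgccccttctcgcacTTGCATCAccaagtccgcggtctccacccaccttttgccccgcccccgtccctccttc
Trib3: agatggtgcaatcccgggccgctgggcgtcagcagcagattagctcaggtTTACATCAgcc
Chac1: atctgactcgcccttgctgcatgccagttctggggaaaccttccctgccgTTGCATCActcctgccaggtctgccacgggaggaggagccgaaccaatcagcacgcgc
The stretches lie at chr6:7693185-7693282 (Asns, minus strand), chr3:50443603-50443729 (Slc7a11, minus), chr11:20332689-20332767 (Slc1a4, minus) and chr6:55037921-55038025 (Gars, plus). The others lie at chr15:11399634-11399723 (Tars, minus), chr1:191183386-191183493 (Atf3, minus), chr2:152344036-152344096 (Trib3, minus) and chr2:119350999-119351106 (Chac1, plus). The stretches of Atf3 and Chac1 lie wholly before the start, and the others reach at most 25 bases beyond it. Slc7a11, the cystine transporter gene, held the motif on both strands, from positions -66 and -47, and every other gene held it at 1 position. In Trib3 the motif lay behind the start, at bases 15 to 22, and in Chac1 it lay farthest upstream, from position -193. A match describes these letters and is not evidence of binding.

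**Figure D1:**
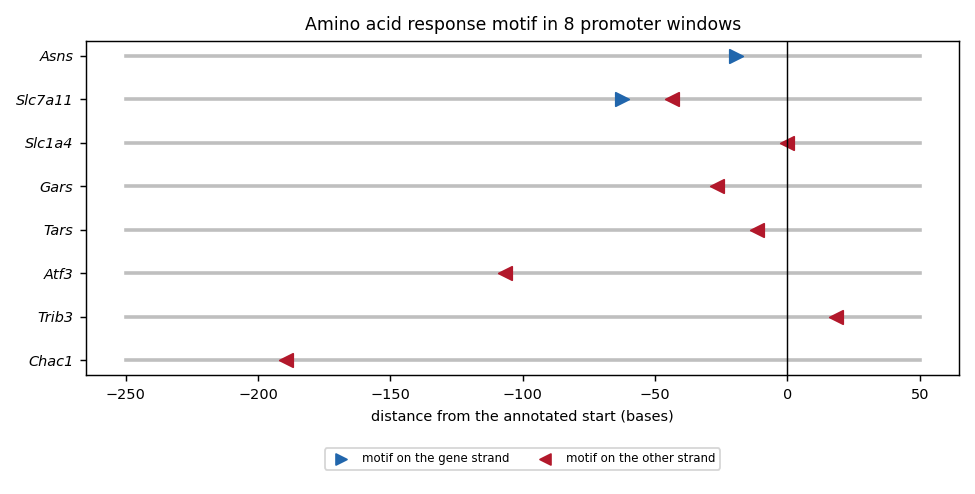
Position of the motif TGATGNAA in the promoter windows of the 8 genes that held it, in bases from the annotated start (x axis, vertical line at the start); grey bars are the windows, and triangles mark the motif on the strand of the gene (pointing right) or on the other strand (pointing left). Slc7a11 has 1 match on each strand, and the matches of Asns, Gars and Tars begin at -23, -30 and -15.

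The arrays carried the markers of their labels. All 11 pluripotency markers were higher on each of the 5 pluripotent arrays than on both MEF arrays, and their summed level on the linear scale ran from 15305 to 18450 on pluripotent arrays, against 238 in MEFs in iCD1 and 246 in FBS. The 13 fibroblast markers summed to between 2660 and 4934 on pluripotent arrays, against 23007 in MEFs in iCD1 and 25287 in FBS. Of these markers 11 were lower on all pluripotent arrays than on both MEF arrays. Dcn and Lum overlapped, at 6.78 and 6.06 in MEFs in FBS, against 7.54 and 6.87 in line O4-4, the highest pluripotent array. The values give no background level, so that none can be read as 0. Genes of dividing cells moved with the cell types as well: 9 of 11 rose and 1, Mki67, fell in pluripotent cells in limma, with sums of 8031 to 9577 on pluripotent arrays, against 3723 in MEFs in iCD1 and 4147 in FBS. Their part in the results below was not tested. In bulk cultures fewer cells of a type and less RNA per cell cannot be told apart.

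Pluripotent cells were compared with MEFs to see whether the pathway differed between the cell types, in a limma fit of 5 pluripotent against 2 MEF arrays. Of the 34 measured genes 21 rose, 3 fell and 10 did not pass an adjusted p of 0.05 over all genes, while 15.6% of all genes rose and 17.5% fell. The median difference was 0.80 for the 34 genes and 0.02 for all 19938 genes. All 5 pluripotent arrays lay above both MEF arrays for 21 genes and below both for 3, against 21.9% and 22% of all genes. The count of rises leaned on the MEFs in iCD1: without that array 9 genes rose (10.1% of all genes) and 2 fell (12.3%), and without the MEFs in FBS 22 rose (11.9%) and 3 fell (14.9%). The spread inside each side includes different media and lines. Line O4-1 entered the pluripotent side both in 2i and in KSR, and the fit treated these arrays as independent samples. Cell type and medium changed together, because no pluripotent array was in iCD1 or FBS.

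**Figure D2:**
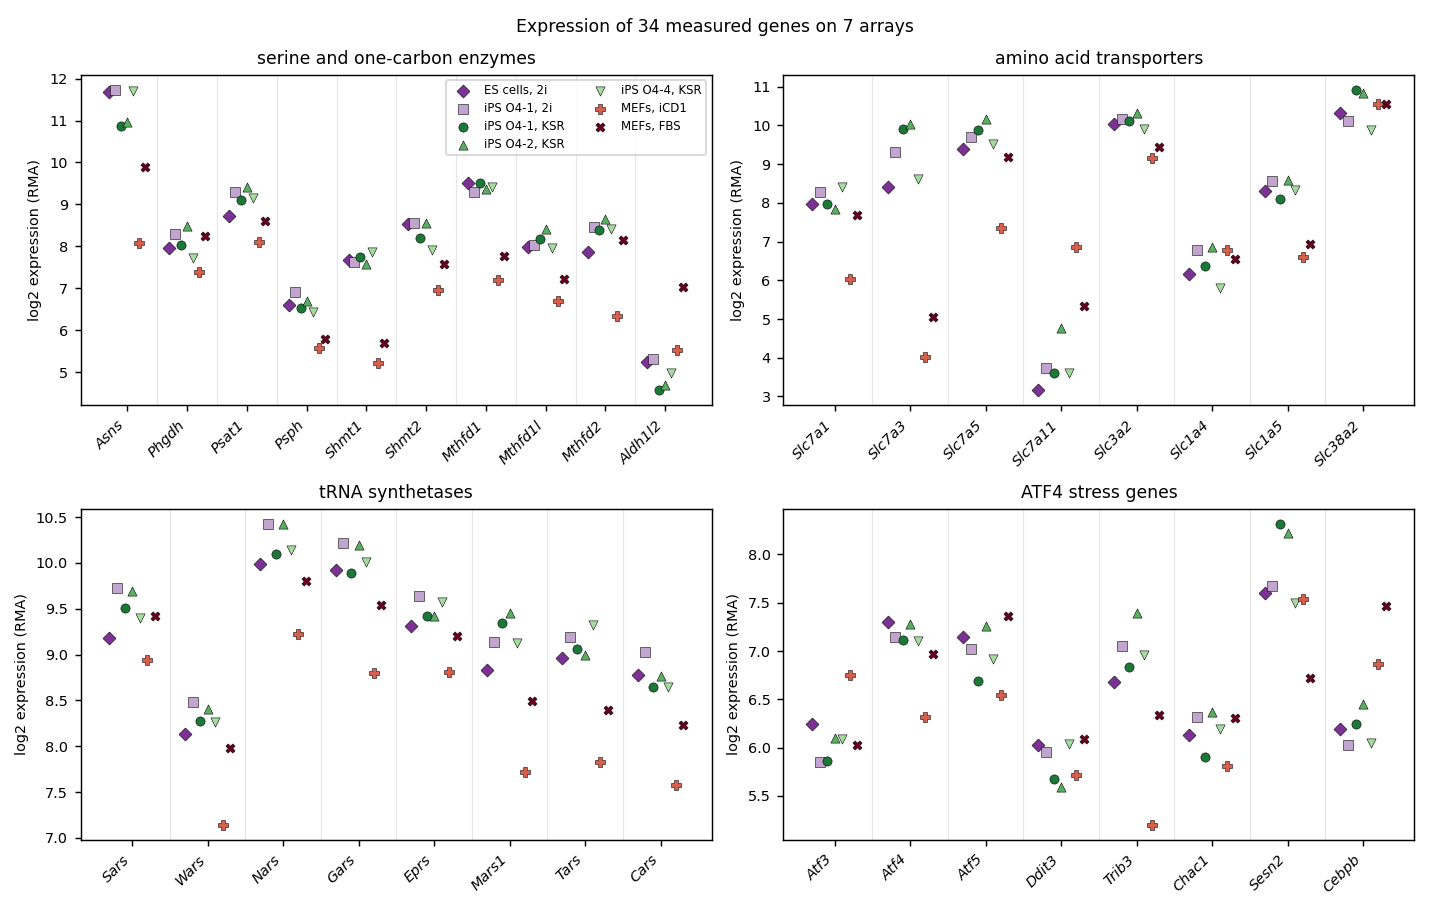
Log2 expression (y axis) of the 34 measured genes (x axis) in 4 panels by role, with 1 point for each of the 7 arrays: ES cells in 2i, line O4-1 in 2i, the 3 KSR lines, MEFs in iCD1 and MEFs in FBS. The MEFs in iCD1 are the lowest point for every enzyme but Aldh1l2 and for each of the 8 tRNA synthetases, and the highest for Slc7a11 and Atf3.

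Among the enzymes 7 of 10 rose, 1 fell and 2 did not pass, where 15.6% of all genes rose and 17.5% fell. The median difference of the enzymes was 1.10. Asns, which makes asparagine from aspartate and glutamine, was at 11.69 in ES cells in 2i, 11.74 in iPS cells in 2i and 10.86, 10.96 and 11.71 in the KSR lines O4-1, O4-2 and O4-4, in that order here and below, against 8.09 in MEFs in iCD1 and 9.89 in FBS. The groups did not overlap, but the MEF arrays lay farther apart than the pluripotent ones. Asns rose by 2.40 ± 0.46 (SE; limma, adjusted p = 0.00462), a 5.29-fold change, and by 1.50 ± 0.40 without the MEFs in iCD1 (limma, adjusted p = 0.0379).

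The cytosolic folate enzyme genes Shmt1 and Mthfd1 separated the cell types on every array. Shmt1, the cytosolic serine hydroxymethyltransferase gene, was at 7.67 in ES cells and 7.61 in iPS cells in 2i and at 7.74, 7.57 and 7.85 in the KSR lines, against 5.22 in MEFs in iCD1 and 5.69 in FBS. Mthfd1, the gene of the cytosolic enzyme that interconverts folate-bound carbon units, was at 9.51 and 9.29 in ES and iPS cells in 2i and at 9.50, 9.37 and 9.43 in the KSR lines, against 7.20 in MEFs in iCD1 and 7.77 in FBS. For both genes the 5 pluripotent arrays stayed close together, well above either MEF array. Shmt1 rose by 2.24 ± 0.15 (SE; limma, adjusted p = 3.46e-05), a 4.72-fold change, and Mthfd1 rose by 1.93 ± 0.16 (limma, adjusted p = 8.24e-05), a 3.82-fold change. Both also rose without the MEFs in iCD1, by 2.00 ± 0.15 and 1.65 ± 0.14 (limma, adjusted p = 0.000664 and 0.000855).

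The mitochondrial folate enzymes of the list were less uniform than Shmt1 and Mthfd1. Shmt2, the mitochondrial counterpart of Shmt1, was at 8.54 and 8.56 in ES and iPS cells in 2i and at 8.19, 8.55 and 7.92 in the KSR lines, against 6.95 in MEFs in iCD1 and 7.58 in FBS. Mthfd1l, whose product releases formate, was at 7.98 and 8.03 in ES and iPS cells in 2i and at 8.17, 8.40 and 7.96 in the KSR lines, against 6.69 in MEFs in iCD1 and 7.23 in FBS. These genes did not overlap between the cell types and Shmt2 rose by 1.09 ± 0.23 and Mthfd1l by 1.15 ± 0.18 (limma, adjusted p = 0.00767 and 0.00165). Mthfd2, the mitochondrial dehydrogenase and cyclohydrolase gene, was at 7.86 and 8.46 in ES and iPS cells in 2i and at 8.40, 8.64 and 8.42 in the KSR lines, against 6.33 in MEFs in iCD1 and 8.15 in FBS. Here the MEFs in FBS lay inside the pluripotent range, and the difference of 1.11 ± 0.43 did not pass (limma, adjusted p = 0.0815). Aldh1l2, whose mitochondrial product burns formyl folate to carbon dioxide, was at 5.25 and 5.31 in ES and iPS cells in 2i and at 4.56, 4.69 and 4.97 in the KSR lines, against 5.53 in MEFs in iCD1 and 7.03 in FBS. It was the enzyme gene that fell, by 1.32 ± 0.38 on the log2 scale (limma, adjusted p = 0.0277), with the MEFs in FBS far above all other arrays, and was not called without that array (limma, adjusted p = 0.233). Shmt2 was not called without the MEFs in iCD1 (limma, adjusted p = 0.0951).

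The genes of serine synthesis itself were not all called, and differences between its steps were not tested. Psph, the gene of the phosphatase that finishes serine synthesis, was at 6.61 and 6.91 in ES and iPS cells in 2i and at 6.53, 6.68 and 6.43 in the KSR lines, against 5.57 in MEFs in iCD1 and 5.79 in FBS. Psat1, the aminotransferase gene, was at 8.72 and 9.29 in ES and iPS cells in 2i and at 9.12, 9.43 and 9.16 in the KSR lines, against 8.11 in MEFs in iCD1 and 8.61 in FBS. Both kept the cell types apart, although the ES cells came close to the MEFs in FBS for Psat1. Psph rose by 0.95 ± 0.15 and Psat1 by 0.78 ± 0.21 (limma, adjusted p = 0.00157 and 0.0204), though Psat1 was not called without the MEFs in iCD1 (limma, adjusted p = 0.202). Phgdh, the gene of the enzyme that opens the pathway, ran from 7.73 to 8.49 on the pluripotent arrays and was at 7.38 in MEFs in iCD1 and 8.26 in FBS, with a difference of 0.28 ± 0.27 that did not pass (limma, adjusted p = 0.504).

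Of the 8 transporters 5 rose, 1 fell and 2 did not pass, where 15.6% of all genes rose and 17.5% fell. Slc7a3, a transporter gene for the cationic amino acids arginine and lysine, was at 8.40 in ES cells and 9.32 in iPS cells in 2i and at 9.92, 10.04 and 8.62 in the KSR lines, against 4.02 in MEFs in iCD1 and 5.06 in FBS. It had the largest difference of the 34 genes, a rise of 4.72 ± 0.49 (SE; limma, adjusted p = 0.000236), or 26.3-fold. Its level on both MEF arrays lay below the median gene mean of 5.25. Its relative Slc7a1 was at 7.97 and 8.29 in ES and iPS cells in 2i and at 7.98, 7.84 and 8.40 in the KSR lines, against 6.04 in MEFs in iCD1 and 7.70 in FBS. Slc7a1 rose by 1.23 ± 0.38 (limma, adjusted p = 0.0392), but the MEFs in FBS came close to line O4-2, and without the MEFs in iCD1 it was not called.

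The neutral amino acid transporters rose in part. Slc1a5, a glutamine and neutral amino acid exchanger gene, was at 8.32 and 8.57 in ES and iPS cells in 2i and at 8.11, 8.59 and 8.33 in the KSR lines, against 6.61 in MEFs in iCD1 and 6.93 in FBS. Slc7a5, which encodes the light chain of the leucine transporter, was at 9.39 and 9.69 in ES and iPS cells in 2i and at 9.88, 10.16 and 9.51 in the KSR lines, against 7.35 in MEFs in iCD1 and 9.18 in FBS. Slc3a2, the heavy chain gene shared by Slc7a5 and Slc7a11, was at 10.04 and 10.17 in ES and iPS cells in 2i and at 10.11, 10.32 and 9.89 in the KSR lines, against 9.15 in MEFs in iCD1 and 9.45 in FBS. For each of these the pluripotent arrays lay above both MEF arrays, by the widest margin for Slc1a5. Slc1a5 rose by 1.61 ± 0.16, Slc7a5 by 1.46 ± 0.43 and Slc3a2 by 0.81 ± 0.14 (limma, adjusted p = 0.000205, 0.0308 and 0.00302), and Slc7a5 was not called without the MEFs in iCD1 (limma, adjusted p = 0.242). Slc1a4, a serine and alanine exchanger gene, at -0.27 ± 0.28, and Slc38a2, a sodium-coupled neutral amino acid transporter gene, at -0.14 ± 0.28, did not pass (limma, adjusted p = 0.537 and 0.775).

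Slc7a11, whose product takes up cystine in exchange for glutamate, went the other way. It was at 3.16 in ES cells and 3.74 in iPS cells in 2i and at 3.62, 4.76 and 3.61 in the KSR lines, against 6.85 in MEFs in iCD1 and 5.35 in FBS. All pluripotent arrays were below both MEF arrays, and it fell by 2.32 ± 0.48 on the log2 scale (SE; limma, adjusted p = 0.00628), a level 5-fold lower. Its values on pluripotent arrays lie below the median gene mean of 5.25. Without the MEFs in iCD1 it was not called.

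Of the 8 measured tRNA synthetases, which charge tRNAs with amino acids, 7 rose, against 15.6% of all genes. Sars, the seryl-tRNA synthetase gene, did not pass. The 8 differences lay between 0.32 and 1.08, with a median of 0.81. Mars1, the methionyl-tRNA synthetase gene, was at 8.83 and 9.14 in ES and iPS cells in 2i and at 9.35, 9.46 and 9.13 in the KSR lines, against 7.72 in MEFs in iCD1 and 8.49 in FBS. Tars (threonine) was at 8.97 and 9.19 in ES and iPS cells in 2i and at 9.07, 8.99 and 9.32 in the KSR lines, against 7.83 in MEFs in iCD1 and 8.39 in FBS. Both separated the cell types, and Mars1 rose by 1.08 ± 0.23 and Tars by 1.00 ± 0.17 (limma, adjusted p = 0.00797 and 0.00263).

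Gars (glycine) was at 9.92 and 10.22 in ES and iPS cells in 2i and at 9.89, 10.20 and 10.01 in the KSR lines, against 8.80 in MEFs in iCD1 and 9.54 in FBS. Cars (cysteine) was at 8.78 and 9.03 in ES and iPS cells in 2i and at 8.65, 8.77 and 8.65 in the KSR lines, against 7.58 in MEFs in iCD1 and 8.24 in FBS. In each the MEFs in iCD1 were lowest and the MEFs in FBS next, with rises of 0.88 ± 0.20 for Gars and 0.87 ± 0.19 for Cars (limma, adjusted p = 0.0101 and 0.00806). Wars (tryptophan) was at 8.13 and 8.48 in ES and iPS cells in 2i and at 8.27, 8.40 and 8.27 in the KSR lines, against 7.14 in MEFs in iCD1 and 7.98 in FBS. Nars (asparagine) was at 9.99 and 10.42 in ES and iPS cells in 2i and at 10.09, 10.43 and 10.15 in the KSR lines, against 9.22 in MEFs in iCD1 and 9.80 in FBS. Eprs (glutamate and proline) was at 9.32 and 9.64 in ES and iPS cells in 2i and at 9.42, 9.42 and 9.58 in the KSR lines, against 8.82 in MEFs in iCD1 and 9.20 in FBS. In these the ES array came close to the MEFs in FBS without overlap, and Wars rose by 0.75 ± 0.21, Nars by 0.70 ± 0.19 and Eprs by 0.47 ± 0.14 (limma, adjusted p = 0.0260, 0.0222 and 0.0383). Of the 7 called synthetases Tars alone was also called without the MEFs in iCD1, with a rise of 0.71 ± 0.17 (limma, adjusted p = 0.0254). Sars had a difference of 0.32 ± 0.19 (limma, adjusted p = 0.254).

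Of the 8 stress genes 2 rose, 1 fell and 5 did not pass, with a median of 0.09. With 15.6% of all genes rising and 17.5% falling, these counts are near the background. Trib3, which encodes a pseudokinase that ATF4 induces and that restrains it, was at 6.68 and 7.05 in ES and iPS cells in 2i and at 6.83, 7.40 and 6.96 in the KSR lines, against 5.20 in MEFs in iCD1 and 6.33 in FBS. Atf4 itself was at 7.30 and 7.15 in ES and iPS cells in 2i and at 7.12, 7.28 and 7.11 in the KSR lines, against 6.32 in MEFs in iCD1 and 6.97 in FBS. Both lay above MEFs on all 5 arrays, though Atf4 only narrowly above the MEFs in FBS, and Trib3 rose by 1.22 ± 0.30 and Atf4 by 0.55 ± 0.17 (limma, adjusted p = 0.0143 and 0.0399). Neither was called without the MEFs in iCD1. ATF4 is controlled largely by translation, which these arrays do not measure. Cebpb, the gene of a C/EBP factor that pairs with ATF4, was at 6.19 and 6.02 in ES and iPS cells in 2i and at 6.25, 6.45 and 6.05 in the KSR lines, against 6.86 in MEFs in iCD1 and 7.46 in FBS. It fell by 0.97 ± 0.18 on the log2 scale (limma, adjusted p = 0.00425) and was below both MEF arrays throughout. The others did not pass: Sesn2, a leucine sensor gene, at 0.73 ± 0.29, Chac1, which encodes a glutathione-degrading enzyme, at 0.13 ± 0.17, and Atf5 at 0.05 ± 0.23 (limma, adjusted p = 0.0948, 0.664 and 0.907). Ddit3, which encodes CHOP, at -0.04 ± 0.17, and Atf3, an early stress factor gene, at -0.36 ± 0.20, did not pass either (limma, adjusted p = 0.893 and 0.234).

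**Figure D3:**
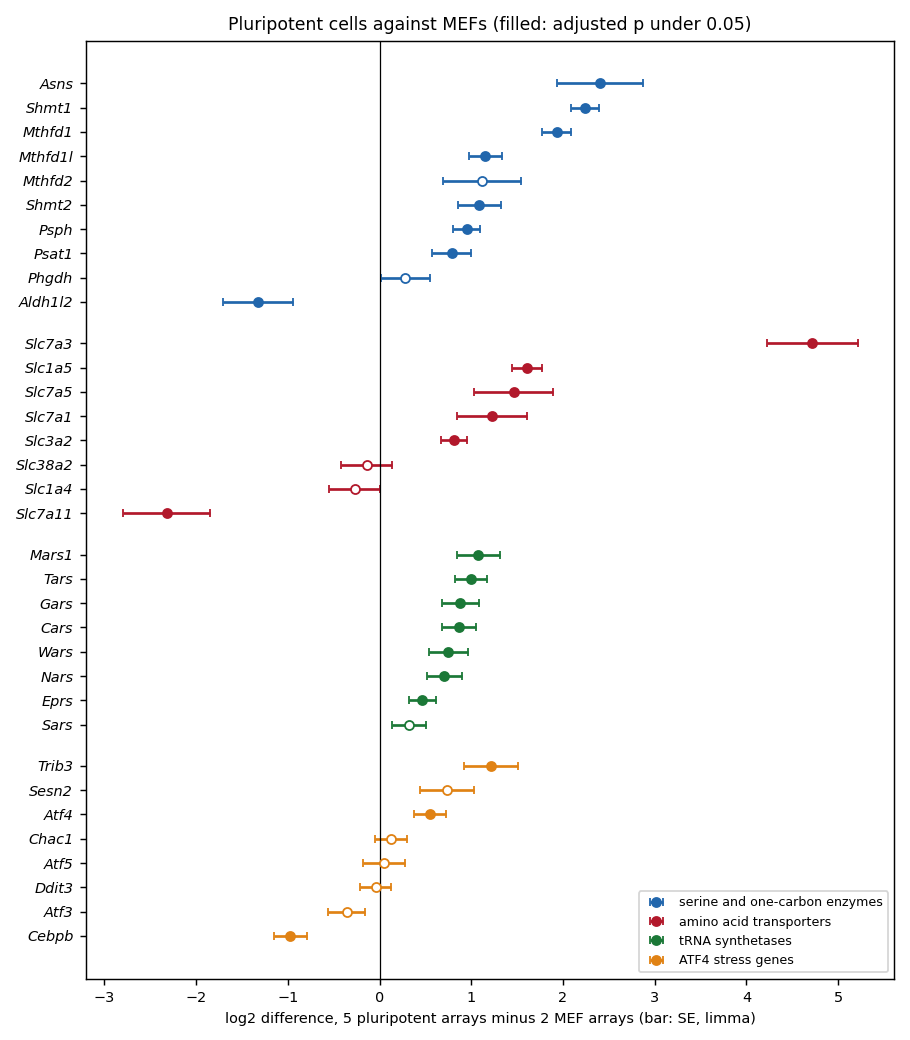
Log2 difference of the 5 pluripotent arrays minus the 2 MEF arrays (x axis; bars are standard errors from limma) for the 34 genes, grouped by role; filled points passed an adjusted p of 0.05 over all genes. Of the enzymes 7, of the transporters 5, of the synthetases 7 and of the stress genes 2 rose, while Aldh1l2, Slc7a11 and Cebpb fell. Over all genes 15.6% rose and 17.5% fell.

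The MEF arrays were compared to see how the pathway differed between the fibroblast media, with 1 array in each and so no test. Of the 34 genes 29 were lower in iCD1 than in FBS and 5 higher, against 53% and 44.8% of all genes. The median was -0.57, against -0.02 over all genes. At 2-fold or more 7 were lower (0.998% of all genes) and 1 was higher (1.7%). The genes lower by 2-fold or more were Slc7a5 (-1.83), Mthfd2 (-1.81), Asns (-1.80), Slc7a1 (-1.66), Aldh1l2 (-1.50), Trib3 (-1.13) and Slc7a3 (-1.04), and the gene higher was Slc7a11 (1.51). The difference was larger than the whole range of the 3 KSR lines for 24 of the 34 genes in the lower direction, against 20.2% of all genes, and for 2 in the higher direction, against 16%.

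By role, all 10 enzymes and all 8 synthetases were lower in iCD1. The synthetase differences ran from -0.83 for Wars to -0.39 for Eprs with a median of -0.62, and the enzyme differences from -1.81 for Mthfd2 to -0.22 for Psph with a median of -0.60. Of the transporters 5 were lower and 3 higher, where Slc38a2 was at 10.56 on both arrays and Slc1a4 differed by 0.24. Of the stress genes 6 were lower, among them Atf5 (-0.81) and Atf4 (-0.65), and Sesn2 (0.81) and Atf3 (0.73) were higher. Of the 8 genes with the motif in their promoter window 5 were lower and 3, Slc7a11, Atf3 and Slc1a4, were higher, and of the 19 genes with a window and no motif 17 were lower and 2 higher.

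Marker levels of the MEF arrays also differed. The 13 fibroblast markers summed to 23007 in iCD1 and 25287 in FBS, with 6 higher and 7 lower. Single fibroblast markers differed widely in both directions: in iCD1 Lum was 3.87, Dcn 2.83, Pdgfra 1.37 and Col3a1 1.36 higher than in FBS, and Acta2 was at -1.93. The 8 macrophage markers summed to 317 in iCD1 and 210 in FBS, with 4 higher and 4 lower. Lyz2, the lysozyme gene of macrophages, was at 6.83 in iCD1 and 4.99 in FBS, and Cd68 was at 6.57 and 5.78. Adgre1, Csf1r and Ptprc were between 3.70 and 4.97 on both arrays. Genes of dividing cells were lower in iCD1 in 10 of 11 cases, with a median of -0.14. The part of these in the difference between the media was not tested.

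**Figure D4:**
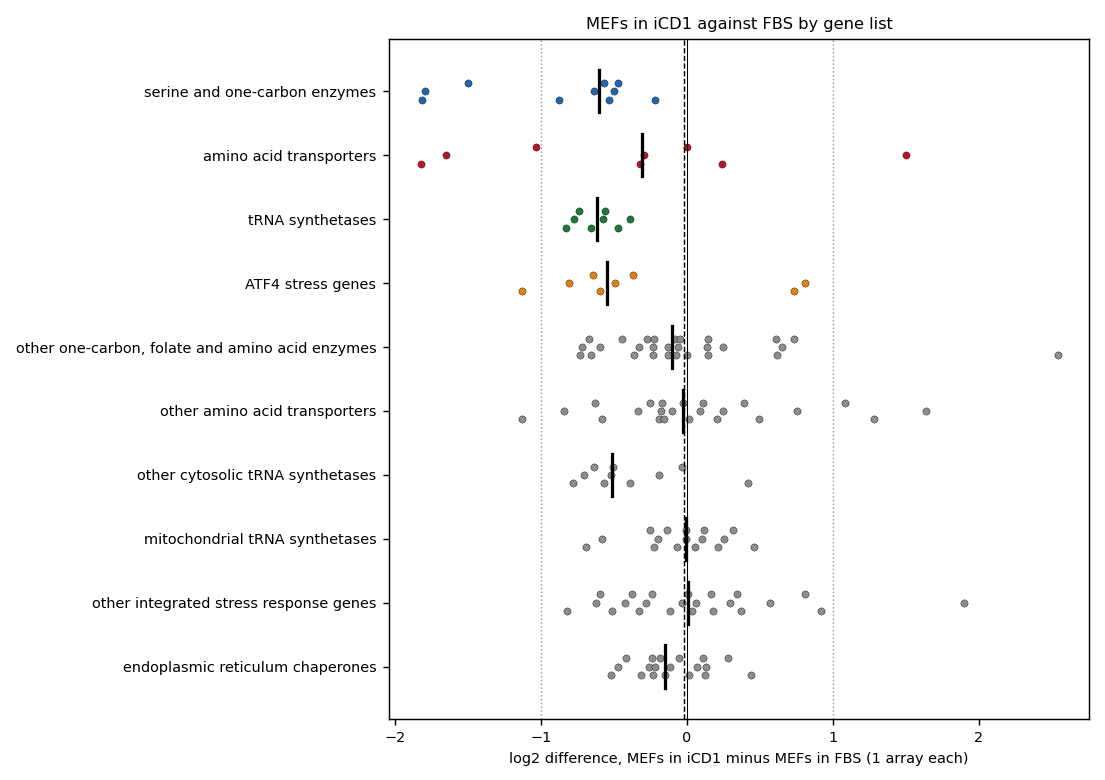
Log2 difference of MEFs in iCD1 minus MEFs in FBS (x axis, 1 array each) for the 4 roles (coloured points) and for 6 lists of other pathway genes (grey points); each point is a gene, the black bar is the median of the list, the dashed line the median of all genes (-0.02) and the dotted lines mark 2-fold. The enzymes and the synthetases all lie below 0, and so do 9 of the 10 other cytosolic tRNA synthetases.

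Each MEF array was then set against the KSR lines, with 3 lines against 1 array in a limma fit of all 5 groups, in which a lone array is assumed to vary like the KSR lines. The comparisons share the KSR arrays. Where low genes are said to be left out, these are genes with a mean over all 7 arrays below the median gene mean of 5.25. As 5 of those 7 arrays are pluripotent, that filter favours genes high in pluripotent cells: it kept Slc7a3 and dropped Slc7a11. Its counts of rises are therefore no separate support. Against MEFs in iCD1, 20 of 34 genes rose and 0 fell, where 8.79% and 11% of all genes did so. The unadjusted p was under 0.05 for 27 of the 34 genes, and for 7050 of all 19938 genes. Against MEFs in FBS, 4 rose and 2 fell, where 6.55% and 8.34% of all genes did so. There 16 of the 34 had an unadjusted p under 0.05, as had 6424 of all 19938 genes. With low genes left out 22 rose against MEFs in iCD1, where 2120 of 9969 genes did so. In that setting 10 rose against MEFs in FBS, Asns among them, where 1920 of 9969 genes did so. The 4 that rose with all genes kept were Slc7a3, by 4.46 ± 0.68, Shmt1, by 2.04 ± 0.16, Mthfd1, by 1.66 ± 0.12, and Slc1a5, by 1.41 ± 0.23 (SE; limma, adjusted p = 0.0367, 0.0188, 0.0170 and 0.0410). Aldh1l2 fell by 2.29 ± 0.21 and Cebpb fell by 1.22 ± 0.20 (limma, adjusted p = 0.0208 and 0.0412).

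For the synthetases the median differences were 1.14 against iCD1 and 0.44 against FBS. The unadjusted p was under 0.05 for 8 and 4 of them, and for 7050 and 6424 of all 19938 genes. With low genes left out 7 synthetases rose against iCD1, where 2120 of 9969 genes did so. In that setting 2 of 8, Mars1 and Tars, rose against FBS, which is near the share of all genes, 1920 of 9969. Asns was 3.09 ± 0.41 above the MEFs in iCD1 and 1.29 ± 0.41 above those in FBS (limma, adjusted p = 0.0246 and 0.135). Mthfd2 was 2.15 ± 0.15 and 0.34 ± 0.15 above them (limma, adjusted p = 0.0129 and 0.245). Whether the differences against the MEF arrays differ from each other comes down to 1 array against 1 and was not tested. With any KSR line left out, limma called 0 genes of the 34 and 0 of all genes in both comparisons, with 4574 to 6796 genes at an unadjusted p under 0.05, since 1 residual degree of freedom was left.

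**Figure D5:**
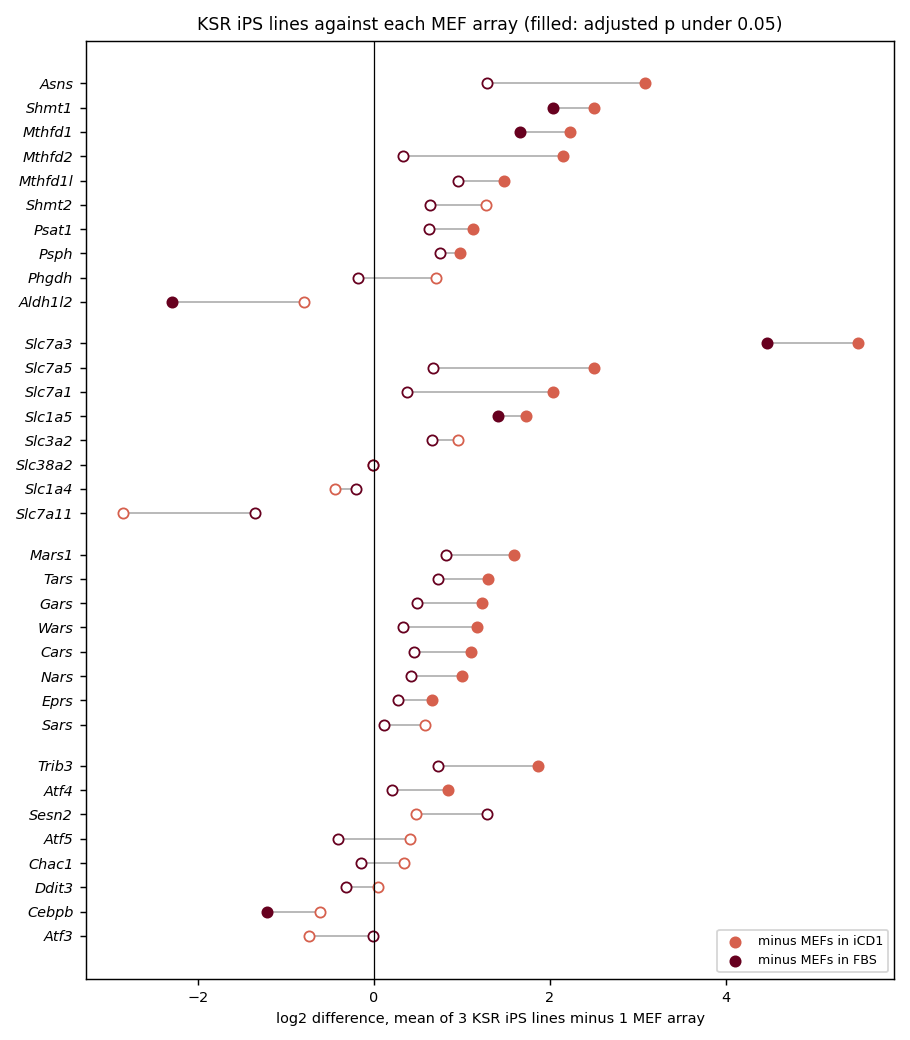
Log2 difference (x axis) of the mean of the 3 KSR iPS lines minus MEFs in iCD1 (light red) and minus MEFs in FBS (dark red) for the 34 genes, grouped by role, with a grey line joining both values of a gene; filled points passed an adjusted p of 0.05 over all genes in limma. Shmt1, Mthfd1, Slc7a3 and Slc1a5 are filled and above 0 against both MEF arrays.

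The pluripotent media were compared with 1 array in 2i against the 3 KSR lines, a design in which limma called no gene at all. Here 0 of the 34 genes and 0 of all genes passed in iPS cells in 2i against the KSR lines, and likewise in ES cells in 2i against the KSR lines, which does not show that the media gave like levels. By unadjusted p, 1 member, Cars, was under 0.05 in iPS cells (6.72% of all genes) and 2, Mthfd2 and Psat1, were so in ES cells (8.76% of all genes). Cars was 0.34 ± 0.12 higher in iPS cells in 2i (limma, adjusted p = 0.727). Mthfd2 and Psat1 were at -0.63 ± 0.15 and -0.51 ± 0.18 in ES cells in 2i (limma, adjusted p = 0.571 for each). The median differences were 0.06 for iPS cells and -0.12 for ES cells.

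In the single line measured in both media, 0 of 34 genes differed 2-fold or more, against 0.481% of all genes higher and 0.953% lower in 2i. In 2i 24 were higher and 10 lower, against 51.9% and 46.2% of all genes. Asns was nearest to a 2-fold change, at 11.74 in O4-1 in 2i and 10.86 in O4-1 in KSR, and Slc38a2 was at 10.11 in 2i and 10.92 in KSR. The value of Asns in 2i was matched by line O4-4 in KSR, at 11.71.

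ES and iPS cells in 2i also differed by less than 2-fold in all 34 genes, where ES cells were higher by that much for 0.672% of all genes and lower for 0.306%. The direction was uneven: 26 of 34 were lower and 8 higher in ES cells, against 51.5% and 46.5% of all genes, with a median of -0.25. All 8 synthetases were lower, by between 0.22 and 0.55. In 5 of them the fall was larger than the range of the KSR lines, as in 3248 of all 19938 genes. Slc7a3 had the largest difference, at 8.40 in ES cells and 9.32 in iPS cells. With 1 array each, there is no replicate check of these differences. The part of genetic background in them was not tested.

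The KSR lines varied most in the transporters. The range of the 3 lines was 2-fold or more for 4 of the 34 genes, all of them transporters, against 3.6% of all genes. These were Slc7a3, Slc7a11, Slc1a4 and Slc38a2. Slc7a3 was at 9.92, 10.04 and 8.62 in the KSR lines, Slc1a4 at 6.38, 6.86 and 5.80, and Slc38a2 at 10.92, 10.83 and 9.89. In these line O4-4 was lowest, and Slc7a11 was higher in O4-2, at 4.76, than in the other lines. The synthetases were steadier, with ranges of at most 0.33 and a median range of 0.30, which is also the median of all genes.

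Other genes of the pathway were taken from 6 lists, with 119 of 132 entries measured. Among 28 other enzymes of folate, glycine and amino acid metabolism 12 rose and 4 fell in pluripotent cells against MEFs in limma (15.6% and 17.5% of all genes). The largest rises were those of the glycine cleavage genes Gldc, by 4.08 ± 0.16, and Amt, by 3.92 ± 0.16, and of Cth, which makes cysteine from cystathionine, by 2.69 ± 0.33 (limma, adjusted p = 5.38e-06, 5.92e-06 and 0.000500). Mthfd2l, a relative of Mthfd2, fell by 1.51 ± 0.31, the folate hydrolase gene Ggh fell by 1.38 ± 0.18 and the sarcosine dehydrogenase gene Sardh fell by 1.36 ± 0.11. Gldc was at 8.44 in ES cells and 8.61 in iPS cells in 2i and at 8.96, 8.67 and 8.48 in the KSR lines, against 4.68 in MEFs in iCD1 and 4.43 in FBS. On both MEF arrays Gldc and Amt lay below the median gene mean of 5.25. Gldc was 0.24 higher in iCD1 than in FBS. Aldh1l1, the cytosolic relative of Aldh1l2, was the enzyme of this list with a 2-fold difference between them, at 7.12 in iCD1 and 4.58 in FBS. It ran from 4.61 to 6.43 on the pluripotent arrays and so, unlike Shmt1 and Mthfd1, overlapped the MEF range.

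Of 10 other cytosolic synthetases 7 rose and 0 fell, against 15.6% and 17.5% of all genes, with a median of 0.62, and 9 of 10 were lower in MEFs in iCD1 than in FBS, with a median of -0.51. Lars (leucine) rose by 1.10 ± 0.19, Iars (isoleucine) by 0.92 ± 0.21 and Yars (tyrosine) by 0.88 ± 0.19 (limma, adjusted p = 0.00263, 0.0101 and 0.00800). Of 16 mitochondrial synthetases 8 rose and 1 fell in pluripotent cells, against the same shares of all genes, with a median of 0.40, and their median between the MEF media was -0.01, with 9 lower and 7 higher in iCD1. Yars2, Rars2 and Tars2 rose by 1.32 ± 0.22, 1.02 ± 0.24 and 0.97 ± 0.18, and Wars2 fell by 0.51 ± 0.14. Between the MEF media single genes of either kind lay away from their list's median: the mitochondrial Mars2 was at -0.70 and Yars2 at -0.58, and the cytosolic Qars at 0.42. The difference between the lists was not tested.

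Of 23 other amino acid transporters 1 rose and 2 fell in pluripotent cells in limma, against 15.6% and 17.5% of all genes. The related transporter genes Slc36a4 and Slc36a1 fell, by 2.38 ± 0.15 and 0.92 ± 0.17, and Slc38a3 rose by 0.72 ± 0.20. In iCD1 the transporter genes Slc7a7, Slc7a8 and Slc16a10 were 1.64, 1.28 and 1.09 higher than in FBS, and Slc1a3 was at -1.13. Of 23 other genes of the integrated stress response 6 rose and 4 fell, against 15.6% and 17.5% of all genes, so that the share that fell was near that of all genes. Stc2, a secreted factor gene, Eif2b3, a subunit gene of the factor that recharges eIF2, and Eif4ebp1, a translation repressor gene, rose by 1.51 ± 0.30, 1.27 ± 0.22 and 0.87 ± 0.12. Sesn3, Vldlr and Cpeb2 fell by 1.68 ± 0.43, 1.32 ± 0.33 and 1.16 ± 0.26. Sesn3, a relative of Sesn2, was 1.90 higher in iCD1 than in FBS.

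A list of endoplasmic reticulum genes, mostly of chaperones and folding, went against the amino acid genes. Of 19 genes 12 fell and 0 rose in pluripotent cells (limma; 17.5% and 15.6% of all genes), with a median of -0.67. Those that fell include Xbp1, Edem1 and Herpud1, which are not chaperone or folding genes. Dnajc3, which encodes an inhibitor of the kinase PERK, fell by 1.90 ± 0.14, Pdia4 fell by 1.03 ± 0.13 and Pdia3 fell by 1.02 ± 0.18 (limma, adjusted p = 5.74e-05, 0.000605 and 0.00314). Between the MEF media their median was -0.15 and 0 of 19 differed 2-fold or more.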

How the data were processed

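The authors deposited log2 expression values for 28853 probe sets on 7 arrays; RMA and Partek are named per the submitters' processing notes, while the sources used here give no versions, background correction or probe set definitions. Array medians ran from 4.97 to 5.03. Groups were taken from the sample titles, since other labels disagree: all descriptions speak of iPS cells, the ES source is given as fibroblasts, and the iPS sources name iCD1. Of the probe sets 21789 had 1 gene symbol, 1621 had several and 5443 had none. For each of 19938 genes the probe set brightest on average across the 7 arrays stood for the gene. limma (3.58.1, R 4.3.3) was run with eBayes, p-values were adjusted by Benjamini and Hochberg across the whole table, and 0.05 was the threshold. It served as a fit of pluripotent cells against MEFs and as a fit of the 5 groups, and it was tested on simulated data. Single arrays were compared by difference, with 2-fold as the limit. Array values are given for each member called between pluripotent cells and MEFs or differing 2-fold between the MEF media. The members and lists were chosen with earlier results of these data known. Alternatives were the mean of all probe sets, quantile normalization, leaving out low genes, a variance trend, other weights of the groups and leaving out each array.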

Additional observations from a re-analysis of the deposited data

How the results depend on the processing

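Between pluripotent cells and MEFs, leaving out each array in turn gave 9 to 22 genes of the 34 that rose and 2 to 3 that fell, against 21 and 3 with all arrays, and the low end came without the MEFs in iCD1. Over all genes, 2020 rose without that array, against 3113 with it. Slc7a1 and Atf4 lost their call without any 1 of the 5 pluripotent arrays, Slc7a5 and Eprs without the iPS array in 2i or any KSR line, Aldh1l2 without any KSR line, and Wars without the iPS array in 2i or line O4-2. Eprs also lost it under quantile normalization. Mthfd2 passed with low genes left out and in both fits of the 5 groups. Small differences turned sign as single arrays were left out: they ran from -0.1581 to 0.7207 for Phgdh, -0.7245 to 0.0072 for Atf3, -0.3533 to 0.4577 for Atf5, -0.1219 to 0.3721 for Chac1 and -0.2293 to 0.1410 for Ddit3, with the end opposite to the full value at the MEF arrays. Of these Atf3 passed without the MEFs in FBS. Ddit3 was also at 0.0073 under quantile normalization and 0.0148 as the mean of the 3 pluripotent groups. Against MEFs in iCD1, the KSR lines had 1 gene that fell with the mean of all probe sets, 2 under quantile normalization, 2 with low genes left out and 1 with a variance trend, against 0. Against MEFs in FBS, 10 rose with low genes left out, where 1920 of 9969 genes did so, against 4 with all genes kept, where 1306 of 19938 did so. Without each KSR line 0 genes rose or fell in either comparison, with 1 residual degree of freedom left. With low genes left out 0 of the 34 were 2-fold higher in MEFs in iCD1 than in FBS, against 1, because Slc7a11 was not kept. Otherwise the cause was not tested. No paired analysis was possible because the groups compared share fewer than 2 replicate numbers, line O4-1 being the only one shared between 2i and KSR. Array values carry no detection calls, so low levels such as those of Slc7a11 cannot be set against a background.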

Other observations

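ES cells in 2i had higher levels than iPS cells in 2i for 17 of the 19 listed endoplasmic reticulum genes, mostly of chaperones and folding. The median difference was 0.29, against a median of -0.01 over all genes. For 14 of the 19 ES cells were higher by more than the range of the 3 KSR lines, as for 2587 of all 19938 genes. For 1 of the 19 they were lower by more than that range, as for 3248 of all genes. None of the 19 differed 2-fold, and with 1 array each there is no replicate check. The 13 fibroblast markers were higher in ES cells for 12 genes, and summed to 4344 on the ES array and 2660 on the iPS array in 2i. The part of fibroblasts in the difference was not tested.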
